A study of Mus musculus with 2 samples.

Results

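The Sfmbt2 intron miRNA cluster is a run of microRNA (miRNA) genes inside the mouse gene Sfmbt2 on chromosome 2. Its members were taken as all miRNA genes of the deposited tables whose mm10 position in GENCODE M21 lies within the Sfmbt2 gene body, on the strand of Sfmbt2. This rule uses position only and gave 107 members among 1973 genes listed. By symbol, 20 were miR-669 genes, 20 miR-466 genes, 14 miR-467 genes and 5 miR-297 genes. The other 48 carry only a predicted-gene symbol (Gm). The annotation places 119 miRNA genes there, and the other 12, among them 9 copies named Mir669a, have no entry matched by identifier and were not analysed here.

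The data are miRNA sequencing counts of lung from B6NCrl mouse embryos at embryonic day 14.5, a stage of airway branching. There are 2 libraries, replicate 1 and replicate 2, in 1 group with no treatment or genotype contrast. The labels describe each library as a lung of 1 pup and also give mixed sex, so tissue of more than 1 embryo is possible. They give different collection days and the same donor identifier, so a difference between replicates and one between collection days cannot be told apart. RNA under 30 nt was sequenced from total RNA.

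miRNAs are short RNAs cut from hairpin precursors, and they guide Argonaute proteins to messenger RNAs chiefly through the seed, bases 2 to 8 of the mature strand. Sfmbt2 encodes a Polycomb-group protein with MBT domains and is an imprinted gene expressed from the paternal allele in early embryos and in extraembryonic tissue. Its intronic cluster arose by repeated duplication in rodents, is abundant in placenta and embryonic stem cells, and is rich in repeats of UG and CA. Many of its members are near-identical copies, which matters for how short reads can be assigned.

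Replicate 1 held 5128214 counts on the strand of a miRNA gene and replicate 2 held 2332032. Levels are given as counts per 1000000 of these counts (CPM), where 1 count is worth 0.195 and 0.429 CPM in replicates 1 and 2. A read covers a mature miRNA and not a stretch of a long transcript, so levels were not divided by length. A gene at 0 counts could still have held up to 3 counts, which is 0.585 and 1.29 CPM in these libraries. Intervals and this limit cover counting error only, since amplified reads need not be independent molecules. Reads that mapped to several places were 32.9% of reads in replicate 1 and 33.1% in replicate 2, and the deposited counts assign them to no gene.

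Markers of lung cells were present in both libraries. The endothelial Mir126a held 7.60% and 5.84% of counts, the 5 epithelial miR-200 genes 3.33% and 3.37%, and the smooth muscle pair Mir143 and Mir145a 7.98% and 6.20%. Of 6 heart miRNAs listed, Mir133a-1 and Mir133a-2 had 0 counts. Reads that map to several places are assigned to no gene, so these 0 counts do not show absence. The heart list summed to 362 CPM in the first library and 42.0 CPM in the second. The 4 blood miRNAs summed to 1125 and 965 CPM. The 7 genes of the miR-290 to miR-295 cluster, which mark pluripotent cells and trophoblast, summed to 21.1 and 21.4 CPM, led by Mir293.

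The same miRNA numbers also occur outside Sfmbt2, and the mature sequences of those relatives show the repeat character of the families. Of 10 such genes, RefSeq (GRCm38.p6) gave mature sequences for 8. They are printed because they bear the names of the cluster's families, with the seed in capitals. No count was assigned to their genes here.

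miR-466i-3p: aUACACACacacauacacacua
miR-466j: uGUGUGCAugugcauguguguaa
miR-466k: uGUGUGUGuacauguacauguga
miR-466q: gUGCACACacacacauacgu
miR-467f: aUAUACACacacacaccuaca
miR-467g: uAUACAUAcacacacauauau
miR-467h: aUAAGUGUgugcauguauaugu
miR-669n: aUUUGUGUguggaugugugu

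The mature strands lie at chr13:17747552-17747573 (miR-466i-3p, plus strand), chr10:60960802-60960824 (miR-466j, plus), chr3:85467396-85467418 (miR-466k, plus) and chr3:28419988-28420007 (miR-466q, plus). The others lie at chr11:69635419-69635439 (miR-467f, minus), chr5:34732872-34732892 (miR-467g, minus), chr9:115381898-115381919 (miR-467h, plus) and chr3:115979905-115979924 (miR-669n, plus). No 2 of these 8 share a seed. The steps UG, GU, CA and AC made up from 50% (miR-467g) to 78.9% (miR-466q) of the steps from one base to the next. None of the 8 was found letter for letter within a hairpin of the cluster. All 10 relatives, including Mir297-1 and Mir466f-4, had 0 counts in both libraries on both strands. Every count of a gene matched to a miR-297, miR-466, miR-467 or miR-669 name was thus assigned to the Sfmbt2 intron. Of the 10 relatives 9 share 20 nt with another miRNA hairpin, and the mature sequence of miR-467h occurs in 3 hairpins. Since reads that map to several places are assigned to no gene, these 0 counts do not show absence.

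In mm10 Sfmbt2 spans 10370510 to 10595253 on the plus strand of chromosome 2. The 107 members lie between 10465287 and 10518279, a span of 53.0 kb. All of them fall in 1 intron of 62.5 kb, between exons 10 and 11 or exons 11 and 12, depending on the annotated transcript. None (0) overlaps an annotated Sfmbt2 exon. Only small RNA was read, so the host messenger RNA was not measured.

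The cluster held 0.378% of all gene-strand counts in replicate 1, with a 95% exact binomial interval from 0.373 to 0.383, and 0.391% in replicate 2, from 0.383 to 0.399, a mean of 0.384% ± 0.00882 (SD, n = 2). This was 19389 counts in replicate 1 and 9108 in replicate 2. The SD over libraries was therefore small beside the mean. In whole tissue, fewer cells that make a miRNA and less of it per cell cannot be told apart. With multimapping and other mapped unassigned reads in the denominator the mean share was 0.222%.

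The cluster's counts were assigned to few members. At least 10 counts in each library were reached by 9 of the 107 members (8.41%), beside 320 of all 1973 genes (16.2%). They were Mir467c, Mir467d, Mir467e, Mir669c, Mir669e, Mir669h, Mir669l, Mir669o and Mir466n, and together they held 99.7% ± 0.0101 of the cluster's counts (n = 2). Another 16 members had between 1 and 24 counts over both libraries, which left 82 members at 0 in both (76.6%), beside 1285 of all 1973 genes (65.1%). Just outside the limit of 10 stood Mir297a-2, with 16 and 8 counts, and just inside it Mir669h, with 27 and 16.

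miR-467 genes led the cluster's assigned counts through 3 members, Mir467c, Mir467d and Mir467e. Mir467e (chromosome 2, 10505721 to 10505807) had a level of 1120 CPM in replicate 1 (exact interval 1092 to 1150) and of 1129 CPM in replicate 2 (1087 to 1173). It ranked 98th of the 1973 genes by mean CPM. Mir467d (10507630 to 10507714) followed with 1062 CPM in replicate 1 (1034 to 1091) and with 899 CPM in replicate 2 (861 to 939), at rank 106. Mir467e exceeded Mir467d by a factor of 1.05 in replicate 1, where their intervals almost touched, and of 1.26 in replicate 2. Mir467c (10473931 to 10474027) stood at 830 CPM (806 to 856) and 865 CPM (828 to 903), at rank 110. Mir467d exceeded Mir467c by 1.28-fold in replicate 1 and by 1.04-fold in replicate 2, where the intervals overlapped. The order of those neighbours was thus clear in replicate 1 only.

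The other 11 miR-467 genes were near 0. They are 10 copies of Mir467a, with 1 count in each library, and Mir467b, with 4 counts in replicate 1 and 0 in replicate 2. Mir467b also gave the 1 read of the whole cluster on the strand opposite to the gene. All 10 Mir467a copies share 20 nt with 14 other miRNA hairpins, and every 20-nt window of each also occurs in another hairpin. A 20-nt read from one of these copies thus matches more than 1 gene.

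miR-669 genes formed the next tier. Mir669o (10514300 to 10514395) stood at 312 and 436 CPM in replicates 1 and 2. Mir669l (10468971 to 10469068) stood at 319 and 381 CPM. The order of these neighbours turned between the libraries, with a ratio of Mir669l to Mir669o of 1.02 in replicate 1 and 0.874 in replicate 2, so neither can be placed above the other. Mir669c (10509296 to 10509404) was lower at 77.0 and 117 CPM. Mir669e (10467495 to 10467613) stood at 22.8 and 30.9 CPM, and Mir669h (10518155 to 10518279) at 5.26 and 6.86 CPM. The step from Mir669o to Mir669c was 4.06-fold and 3.72-fold in the 2 libraries, and that from Mir669c to Mir669e 3.38-fold and 3.79-fold. Of the 20 miR-669 genes 13 had 0 counts in both libraries (65%), near the 65.1% of all genes.

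miR-466 and miR-297 genes, the other families of the cluster, had low counts. Mir466b-4 to Mir466b-8 and Mir466c-2 have no 20-nt window of their own, so 20-nt reads from them could not be assigned to 1 gene. Mir466b-1, Mir466c-1 and Mir466e have no entry matched by identifier. The level of the whole miR-466 family was thus not measured. Mir466n (10513741 to 10513834) was the miR-466 gene with the highest level, at 20.9 CPM (exact interval 17.1 to 25.2) and then 30.0 CPM (23.4 to 37.9) in replicates 1 and 2. These values overlap those of Mir669e, so the order of Mir669e and Mir466n is not settled. Of the 20 miR-466 genes 12 had 0 counts in both libraries (60%), a share near the 65.1% of all genes. Mir297a-2 (10472254 to 10472343) led the miR-297 genes at 3.12 and 3.43 CPM. The 48 predicted genes held 11 counts in replicate 1 and 1 in replicate 2, of which Gm22072 (10465287 to 10465407) had 6 and 0.

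**Figure D1:**
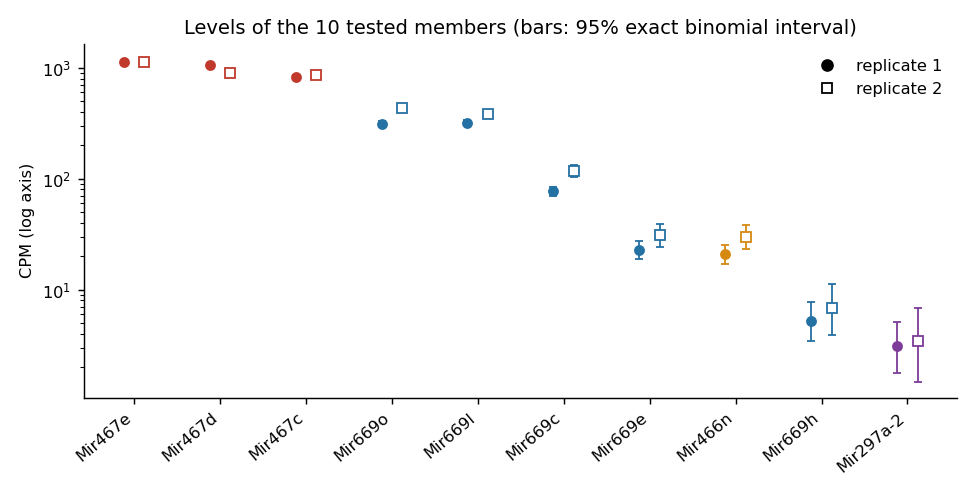
CPM on a log axis of the 10 members with at least 10 counts over both libraries, with filled circles for replicate 1, open squares for replicate 2 and bars for the 95% exact binomial interval. The 3 miR-467 genes lie between 830 and 1129 CPM, Mir669o and Mir669l between 312 and 436 CPM, and the other 5 members at or below 117 CPM.

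Summed by name, miR-467 genes held most of the cluster's counts in both libraries. Their share of the cluster's counts was 79.7% in replicate 1, with an exact interval from 79.1 to 80.3, and 74.1% in replicate 2, from 73.2 to 75, a mean of 76.9% ± 3.97 (n = 2). miR-669 genes held 19.5% (19.0 to 20.1) and 24.9% (24.0 to 25.8), a mean of 22.2% ± 3.79. miR-466 genes held 0.634% and 0.867%, miR-297 genes 0.0825% and 0.143%, and predicted genes 0.0567% and 0.011%. The ratio of miR-467 to miR-669 counts was 4.08 in replicate 1 and 2.98 in replicate 2. These ratios are taken within a library and do not depend on scaling between libraries. The intervals of the miR-467 share do not overlap between the libraries, nor do those of the miR-669 share. They hold counting error only, and with 2 libraries of 1 group no test of this difference was made. Multimapping reads and the 12 unlisted genes are not in these counts. All 10 Mir467a copies and several miR-669 and miR-466 genes have no 20-nt window of their own. The shares thus describe counts assigned to a single gene, and the part of each family in all miRNA of the cluster was not measured.

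**Figure D2:**
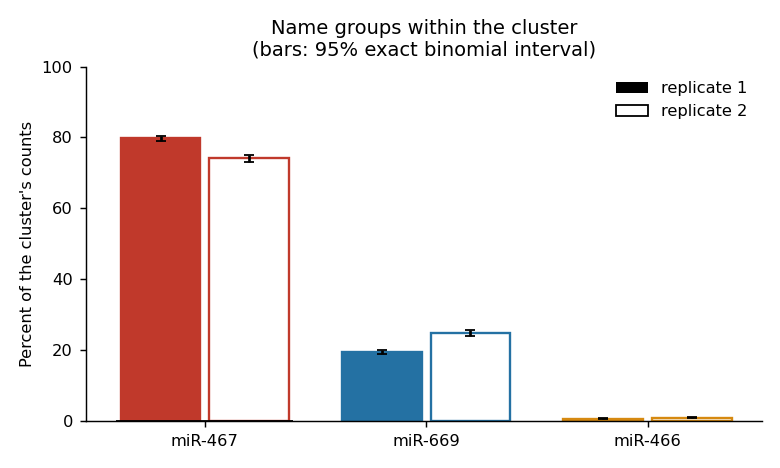
Percent of the cluster's counts held by miR-467, miR-669 and miR-466 genes, with filled bars for replicate 1, open bars for replicate 2 and error bars for the 95% exact binomial interval. miR-467 stands at 79.7% and 74.1%, and miR-669 at 19.5% and 24.9%. Multimapping reads are not counted.

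Reads lay at both ends of the cluster, with a nearly empty stretch between them. The stretches were set after the values had been seen, with Mir467c and Mir467e as their edges. The first 17 members, up to and including Mir467c, span 8.74 kb and held 31.2% and 32.8% of the cluster's counts. The last 30 members, from Mir467e on, span 12.6 kb and held 68.8% and 67.2%. Between them lie 60 members in 30.3 kb (10474433 to 10504773), which held 9 counts in replicate 1 and 4 in replicate 2. Only Mir669a-3, Mir467a-1, Mir467b and Mir466b-3 had any count in that middle stretch.

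The middle stretch is where the hairpins are most alike. Of its 60 members 40 have no 20-nt window of their own, that is, every such window also occurs in another miRNA hairpin, against 0 of the first 17 and 2 of the last 30. The 10 Mir467a copies lie in it at a median spacing of 2.46 kb, from 2.41 to 4.88 kb. The median percent of windows found in no other hairpin was 0% in the middle stretch, 46.7% in the first and 51.3% in the last. Only reads that mapped to a single place are counted here, so for those 40 members 20-nt reads could not be assigned to 1 gene. Windows longer than 20 nt were not examined, and Mir467a-1, among the 40, had 1 count in each library. The counts of the 40 thus do not show whether their miRNAs were made in the lung. The other 20 members of the stretch have windows of their own, and 17 of them also had 0 counts in both libraries. So did 9 of 17 such members in the first stretch and 15 of 28 in the last, beside 65.1% of all genes. Mir467d, with 5447 and 2097 counts, has 37.9% of windows its own. Of members with more than that, 6 of 11 in the first stretch and 8 of 18 in the last were at 0 in both libraries. In the middle stretch all 4 such members were at 0. They are Gm23988 (70.9% of windows its own), Gm26491 (68.6%), Gm25316 (45.5%) and Gm25753 (45.1%). For them the limit that 0 counts allow applies as elsewhere, and where in the hairpin the mature miRNA lies was not examined.

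**Figure D3:**
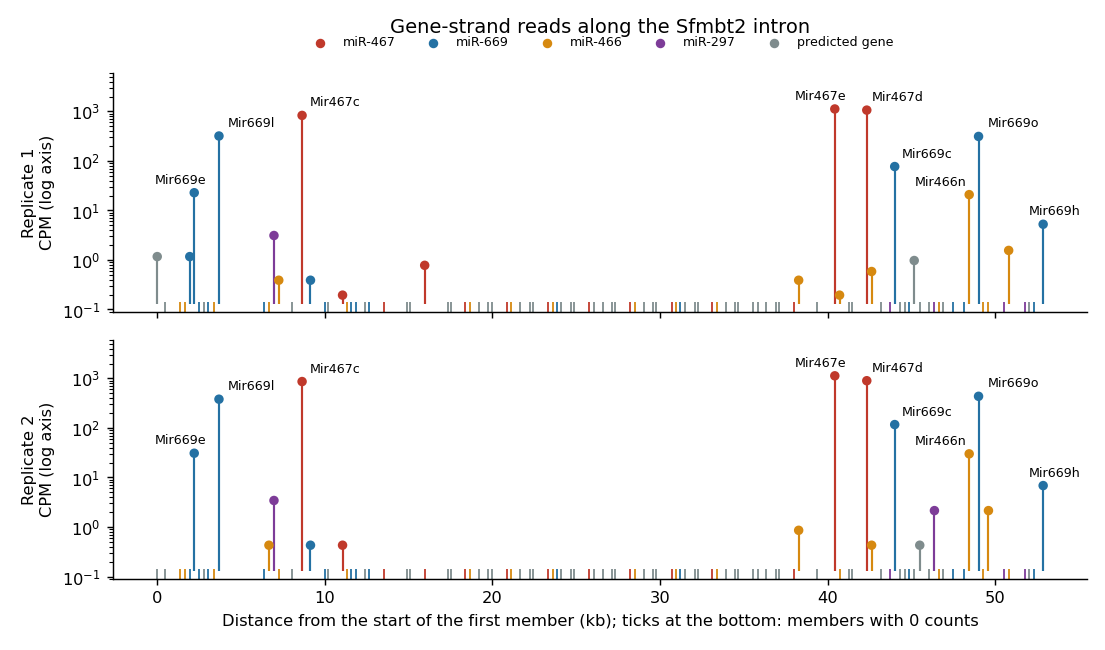
CPM on a log axis in replicate 1 (upper panel) and replicate 2 (lower panel) against the distance in kb from the start of the first member, coloured by name, with ticks at the bottom for members at 0 counts. The 9 members with at least 10 counts in both libraries sit in the first 8.74 kb or in the last 12.6 kb.

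Members with more sequence of their own more often reached 10 counts in both libraries. They were 0 of 42 with no 20-nt window of their own, 1 of 40 with up to 50% and 8 of 25 with more than 50%, beside 16.2% of all genes. Reads that map to several places are assigned to no gene, so members without a window of their own were nearly bound to fall short. The difference between the classes thus follows in part from the counting rule. No association of own sequence with level was computed. Of 42 members without a 20-nt window of their own, 41 had 0 counts in both libraries, and Mir467a-1 had 1 count in each. The 9 members with at least 10 counts in both libraries had from 37.9% (Mir467d) to 95% (Mir669e) of windows of their own, a median of 57.4%. The other 98 members had a median of 20.5%. The 3 members whose hairpins share no 20-nt window with any other miRNA hairpin were at or near 0. They are Mir466g (10514595 to 10514674) and Gm23542 (10511370 to 10511465), with 0 counts in both libraries, and Gm22239 (10510461 to 10510563), with 5 and 0. For Mir466g and Gm23542 the limit that 0 counts allow, 0.585 and 1.29 CPM, is far under the level of Mir467d, whose windows are mostly shared. Only annotated miRNA hairpins were compared, and the part of shared sequence in low counts was not tested. Repeats elsewhere in the genome were not searched.

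**Figure D4:**
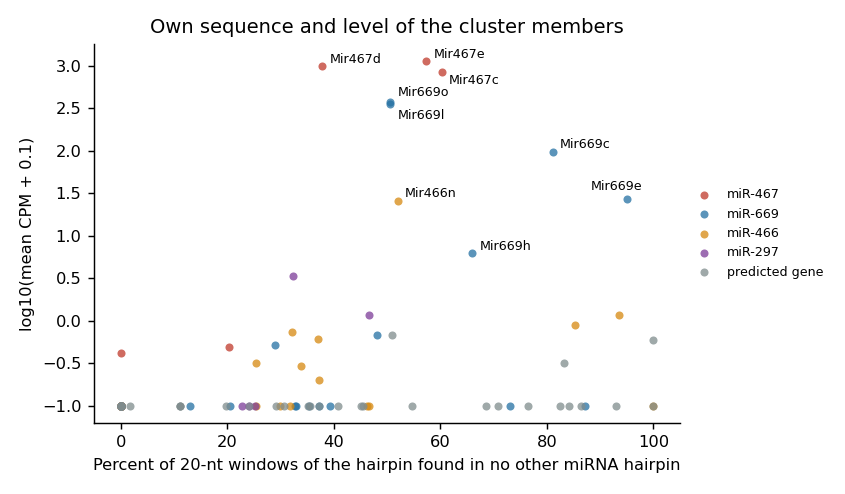
log10(mean CPM + 0.1) of each of the 107 members against the percent of 20-nt windows of its hairpin that occur in no other miRNA hairpin, coloured by name. Points at the bottom are members with 0 counts in both libraries, which are found along the whole axis, while the 9 labelled members lie from 37.9% to 95%.

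The hairpins also shared a base composition that the rule did not use. The steps TG, GT, CA and AC made up a median of 48.6% of neighbouring bases in the 107 hairpins (range 32.5% to 66.7%), beside a median of 26.9% over the 1894 genes with a hairpin sequence. Of the members 106 lay at or above the 75th percentile of those genes, which was 33.0%. Their median GC content was 38.3%, beside 51.0% over all. The 9 members with at least 10 counts in both libraries had a median of 48.8% of such steps and 39.4% GC, close to the 48.6% and 38.2% of the other members. The dinucleotide content is a description of the genome and not of the reads, and how readily such sequences were captured in a library was not measured.

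Clusters in other host genes, chosen by the same positional rule, are given for comparison. The 5 miRNA genes within Clcn5 on the X chromosome, which also lie inside a protein-coding gene, held 0.319% ± 9.66e-05 of counts (n = 2), and all 5 passed 10 counts in both libraries. The 13 miRNA genes within Mirg, a host transcript of the imprinted Dlk1-Dio3 region, held 1.65% ± 0.118, and 12 passed. None (0) of those 18 hairpins shares 20 nt with another miRNA gene, against 104 of the 107 members in Sfmbt2. Among all genes listed, 75 of 923 that share 20 nt passed 10 counts in both libraries (8.13%), close to the 9 of 104 such members (8.65%). The Sfmbt2 share exceeded the Clcn5 share in both libraries, and for both clusters the exact intervals lay apart (0.314 to 0.324 for Clcn5 in replicate 1, 0.312 to 0.326 in replicate 2). Reads of different sequences are compared here, and no test over libraries was made. How many reads of each cluster were set aside as multimapping was not measured.

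The libraries were then compared member by member. This compares 2 libraries and not conditions. An exact two-sided binomial test was run, given library sizes scaled by TMM, on each gene whose counts summed to 10 or more, and p-values were adjusted by the Benjamini-Hochberg method over all 404 genes tested. Of the 107 members 10 had enough counts. Among all genes tested 41.8% passed an adjusted p of 0.05, 17.8% as higher in replicate 2 and 24.0% as lower. Of the 10 members 4 passed (40%), 3 higher and 1 lower in replicate 2, which is near that background and so is no result about the cluster. The split depended on scaling. With library totals 43.8% of all genes passed, 27.7% as higher and 16.1% as lower in replicate 2, and 5 members passed, 4 of them higher. With DESeq2 size factors 41.6% passed, 15.1% as higher and 26.5% as lower, and 4 members passed, 2 of them higher.

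Log2 ratios are of replicate 2 over 1 on TMM-scaled CPM, whereas the CPM values are not TMM-scaled. Mir467d was lower in replicate 2, at 899 against 1062 CPM, a ratio of -0.33 on the log2 scale (exact binomial test, adjusted p = 1.46e-18). Mir669o was higher in replicate 2, at 436 against 312 CPM (log2 ratio 0.39, exact binomial adjusted p = 1.51e-10). Mir669c was higher there too, at 117 against 77.0 CPM (log2 ratio 0.51, exact binomial adjusted p = 3.07e-05). Mir669l was higher at 381 against 319 CPM (log2 ratio 0.17, exact binomial adjusted p = 0.0158), a call lost with DESeq2 size factors (adjusted p = 0.11). The largest of these differences was 1.52-fold in CPM, for Mir669c.

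The other members tested did not pass. Mir467e stood at -0.08 on the same scale (adjusted p of the exact binomial test = 0.0532) and Mir467c at -0.03 (adjusted p = 0.615), and both turned positive when library totals were used (0.01 and 0.06). Mir669e had 0.33 (adjusted p = 0.228), Mir466n 0.42 (0.117), Mir669h 0.25 (0.70) and Mir297a-2 0.04 (1.0). All 5 miR-669 genes tested had a positive ratio and all 3 miR-467 genes a negative one under TMM scaling, where Mir467e and Mir467c turn with library totals. The 10 members had a median log2 ratio of 0.21, beside -0.03 over the 404 genes. Summed over the cluster, which weights members by their counts, the ratio was -0.04, and it turned to 0.047 with library totals. The median and the sum thus differed in sign under TMM scaling.

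Counting error is not the whole spread between biological replicates. When the dispersion common to all genes between these libraries (0.0327) entered an edgeR exact test, added after the data had been seen, 0 of the 10 members passed, 0 reached an unadjusted p under 0.05, and 0.248% of all genes passed. The smallest unadjusted p among members was 0.19, for Mir669c. That dispersion was estimated from the difference between the same 2 libraries that the test then compared, so few calls follow largely from its construction, and they say nothing about which members differ between lungs. The heart miRNAs, led by Mir208a, were at 362 CPM in the library with less miR-669 and at 42.0 CPM in the other. The endothelial Mir126a was at 76033 and then 58438 CPM in replicates 1 and 2. The smooth muscle pair summed to 79791 and 62023 CPM, and the blood list to 1125 and 965 CPM. Mir126a and both sums were lower in the library with more miR-669. Within the smooth muscle pair only Mir143 was lower there, at 60488 against 78321 CPM, while Mir145a was higher, at 1535 against 1470 CPM. The epithelial list differed little in sum, at 33294 and 33730 CPM, but its members went in opposite directions. Mir429 fell from 14949 to 13319 CPM, while Mir200c rose from 10196 to 11566 CPM, and Mir200a, Mir200b and Mir141 rose too. The miR-290 to miR-295 genes also differed little in sum, at 21.1 and 21.4 CPM. The part of any of these lists in the shift between miR-467 and miR-669 was not tested.

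**Figure D5:**
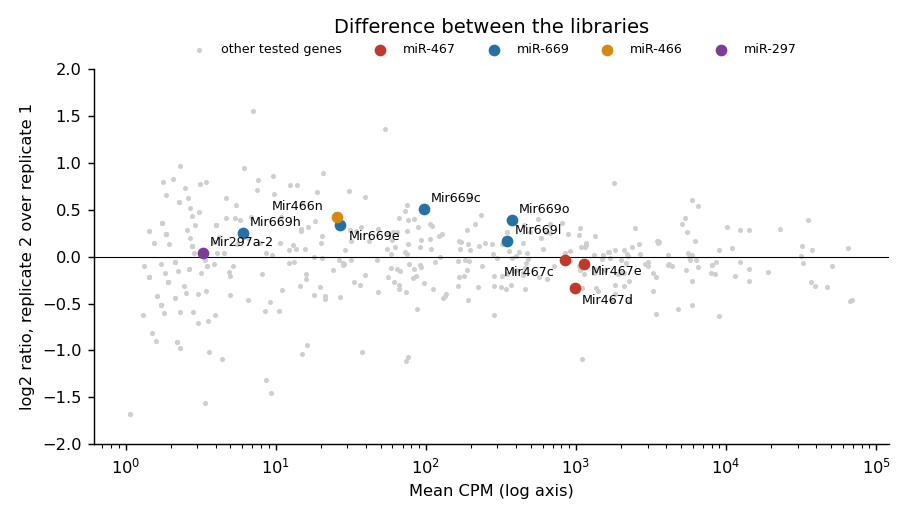
log2 ratio of replicate 2 over 1, from CPM scaled by TMM, against mean CPM (log axis), with the 10 tested members coloured by name and all other tested genes in grey (1 gene lies beyond the axis). The 5 miR-669 genes lie above 0 and the 3 miR-467 genes below it (Mir467e and Mir467c lie above 0 with library totals), all among the other genes.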

How the data were processed

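miRNA counts of 2 E14.5 lung libraries were analysed. The authors deposited whole-number counts per miRNA gene (without regard to strand, on the gene's strand, and opposite), derived from alignments to mm10 with GENCODE M4, per the deposited readme. For the aligner and the counter the name is not given in the sources used here. The 4 summary lines (in replicates 1 and 2, unmapped 12.7% and 11.7%, multimapping 32.9% and 33.1%, no feature 4.10% and 3.93%, ambiguous 0%) name no gene and were left out. The gene-strand counts (5128214 and 2332032, out of 10200412 and 4544184 reads with unmapped and multimapping ones included) gave CPM, shares with 95% exact (Clopper-Pearson) intervals and mean ± SD. With 1 group no quasi-likelihood test could be made. Of 1973 identifiers 1894 matched GENCODE M21, and the 79 others held 1 count. Hairpins from M21 transcripts were compared in 20-nt windows. RefSeq mature sequences matched 8 of 10 relatives and 0 of 107 members. No per-sample column was left without a sample (0). Log2 ratios carry a pseudocount of 1 CPM. The binomial test, checked on simulated counts of this comparison with counting error only (413 genes tested, 200 changed), recovered 74.0% of genes changed 2-fold and 61.5% of those changed by the square root of 2, with 1 call in the wrong direction and 1 unchanged gene called.

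Named members were those with a mean of at least 10 CPM (at most 25), the leading member of each name, every member called, every member sharing no 20 nt, and the highest on the opposite strand. Mir669h and the genes listed by count fall outside this rule, a choice made with their values in view. The members and lists were chosen with earlier results of these data known. Alternatives were other denominators, strand columns, replicates, scalings, filters, pseudocounts and detection limits. Analyses ran in Python 3.11.15 (scipy 1.17.1) and R 4.3.3 (edgeR 4.0.16; DESeq2 1.42.0).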

Additional observations from a re-analysis of the deposited data

How the results depend on the processing

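The cluster's share of counts (0.384%) was 0.413% without the most abundant gene in the total, 0.222% with multimapping and other mapped unassigned reads, 0.373% with counts of both strands, 0.272% without Mir467e and 4.87e-05% for the 3 members sharing no 20 nt, and it lay between 0.378% and 0.391% when each replicate was left out. Without Mir467e the share of the cluster held by miR-467 was 67.4%, by miR-669 31.4%, by miR-466 1.06% and by miR-297 0.159%. With only members of at least 10 counts in both libraries, an alternative added after the data had been seen, miR-297 and predicted genes held 0%. Leaving out each replicate gave 74.1% to 79.7% for miR-467, 19.5% to 24.9% for miR-669, 0.634% to 0.867% for miR-466, 0.0825% to 0.143% for miR-297 and 0.011% to 0.0567% for predicted genes. With a limit of 1 count in both libraries 14 members were counted in place of 9, and leaving out each replicate gave 9 to 10. Between libraries 4 to 6 members passed under the scalings, filters and columns tried. With no filter 6 of 25 members passed, beside 163 of 688 genes. With at least 20 counts it was 5 of 10 members beside 170 of 347 genes, and with counts of both strands 4 of 10 beside 177 of 413. These are near the background and are no result about the cluster. With the common dispersion 0 members passed, beside 1 of 404 genes. It was estimated from the same 2 libraries and so allows few calls by construction. The summed log2 ratio turned from -0.04 to 0.047 with library totals and was -0.090 with DESeq2 size factors, which shifted all ratios by -0.14 relative to library totals. Mir467e (0.012) and Mir467c (0.059) also turned positive with library totals, and the cause of these turns is the shift itself, since the same counts were used. Mir467e passed with DESeq2 size factors (-0.12) and Mir466n with library totals (0.50). No paired analysis was possible because there is 1 group. Depth limits members under about 10 counts, and reads set aside as multimapping limit the copies without sequence of their own.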
